A study of Mus musculus with 22 samples.

Results

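Mature neutrophils with little Ngp and Camp RNA were picked out of single-cell RNA-seq (scRNA-seq) of the mouse olfactory epithelium (OE). The cells were chosen by 2 measured shares of their own RNA: S100a8 and S100a9 together made up at least 5% of a cell's UMIs (unique molecular identifiers, each standing for 1 captured RNA molecule), and Ngp and Camp together made up less than 3%. They numbered 890 of the 25185 cells that were kept out of 32293 barcodes, where a kept cell had over 500 genes, over 1500 UMIs and under 20% of its UMIs from mitochondrial genes. Another 1895 cells passed the S100a8 and S100a9 limit with 3% or more of Ngp and Camp and are called immature neutrophils here, and 22400 were other kept cells. The OE came from 4 wild-type (WT, Upf3b+/y) and 4 Upf3b-null (Upf3b-/y) male C57BL/6J mice, 7 to 8 weeks old, with 1 library per mouse. Upf3b encodes a factor of nonsense-mediated RNA decay (NMD), and the design asks what its loss does to the cells of the OE. The null allele is carried by every cell of the mouse, so an effect on neutrophils cannot be told apart from an effect on the tissue around them. Whole OE was dissociated with enzymes and dead cells were removed, without a sort for blood cells, so neutrophils in the tissue and in its vessels cannot be told apart.

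Neutrophils are made in the bone marrow, where precursors fill their granules in order. Primary granules with Mpo and Elane come first, secondary granules with Ltf, Camp and Ngp follow, and gelatinase granules with Mmp9 come last. Cells that leave the marrow have largely shut off these granule genes and express chemokine and growth factor receptors such as Cxcr2 and Csf3r. S100a8 and S100a9 encode the subunits of calprotectin, the most abundant cytosolic protein of the neutrophil, and are expressed from the secondary granule stage on.

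Upf3b RNA followed the labels. Over all kept cells it was at 58.3, 63.1, 76.7 and 88.5 CPM (UMIs of a gene scaled to a total of 1000000) in WT mice 1 to 4 and at 0.479, 0.211, 1.24 and 0.990 CPM in Upf3b-null mice 1 to 4. In the mature neutrophils themselves 14 of 342164 UMIs in WT and 3 of 2089866 UMIs in Upf3b-null mice were from Upf3b. All 3 of the latter came from Upf3b-null mouse 4. Upf3b-null mice 1, 2 and 3 had none, and a count of 0 allows up to 8.26, 55.9 and 21.4 CPM there. WT mouse 1 had none either, which allows up to 82.5 CPM, so the members alone do not tell the genotypes apart in every mouse.

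The libraries were far from equal in these cells. Upf3b-null mouse 4 gave 584 members, Upf3b-null mouse 1 gave 100, WT mouse 4 gave 93 and Upf3b-null mouse 3 gave 50. The others gave 24 (Upf3b-null mouse 2), 15 (WT mouse 2) and 12 each (WT mice 1 and 3). WT mouse 3 stood apart with only 17 neutrophils of either kind. The summed UMIs of the members ran from 36381 in WT mouse 1 to 1533115 in Upf3b-null mouse 4, so values of the latter are the most precise. A median member had 2190 UMIs and 878.5 genes, against 3023 UMIs and 998 genes in an immature neutrophil. Of 889 member barcodes, 1 was a member in 2 libraries and 20 were kept in another library.

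Free RNA divided the libraries in a way that the labels do not record. In WT mice 3 and 4 and Upf3b-null mice 3 and 4, haemoglobin RNA made up a median of 0.927%, 0.749%, 1.76% and 1.01% of the UMIs of olfactory neurons (cells with at least 3 Omp UMIs). Haemoglobin is the product of red cells. In the other 4 libraries the median was at most 0.0519%. The same neurons carried S100a8 and S100a9 RNA at a median of 0% to 0.628% of UMIs, below the 5% that members had to reach. With every cell thinned to 1500 UMIs, S100a8 was found in 55.8% of these neurons on average (range over mice 10.5% to 99.2%), and Retnlg in 18.0%.

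The markers were those of neutrophils. Retnlg (resistin-like gamma, a secreted protein of mature neutrophils) was found in 84.3% of thinned members, Mmp8 (neutrophil collagenase) in 63.3%, G0s2 (an inhibitor of the lipase ATGL) in 54.0% and Cxcr2 in 36.9%, as means over mice. Without thinning the shares were 87.3%, 68.6%, 65.2% and 48.7%. In olfactory neurons Mmp8, G0s2 and Cxcr2 were found in 2.43%, 2.04% and 0.772% of thinned cells, with median depths before thinning of 2016.5 to 4060 UMIs. Immature neutrophils also carried them, with Retnlg in 59.7%, Mmp8 in 41.0%, G0s2 in 47.5% and Cxcr2 in 12.4% of thinned cells, so detection of these genes marks both kinds. At least 2 of Retnlg, Mmp8 and G0s2 were detected in 91.3% of all members pooled, most of which came from 1 mouse, and in 64.7% of the immature cells. By mouse the share of members ran from 58.3% in WT mouse 3 and 62.5% in Upf3b-null mouse 2 to 95.5% in Upf3b-null mouse 4.

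Retnlg and Mmp8 are markers of these cells and S100a9 is one of the genes they were chosen by, so the bases in front of these 3 genes are shown. They are RefSeq's, on GRCm38.p6, the 250 bases before the start of the gene on its own strand. Capitals mark matches to TTNNGNAA on either strand, the core of the motif that C/EBP factors bind, since C/EBP proteins drive granulocyte genes.
S100a9, chr3:90695722-90695971, minus strand: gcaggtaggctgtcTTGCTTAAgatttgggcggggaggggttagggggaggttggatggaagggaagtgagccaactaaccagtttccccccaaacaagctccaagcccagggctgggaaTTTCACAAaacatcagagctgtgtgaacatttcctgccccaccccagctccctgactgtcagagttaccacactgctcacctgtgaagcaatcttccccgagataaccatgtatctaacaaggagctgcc
Retnlg, chr16:48872358-48872607, plus strand: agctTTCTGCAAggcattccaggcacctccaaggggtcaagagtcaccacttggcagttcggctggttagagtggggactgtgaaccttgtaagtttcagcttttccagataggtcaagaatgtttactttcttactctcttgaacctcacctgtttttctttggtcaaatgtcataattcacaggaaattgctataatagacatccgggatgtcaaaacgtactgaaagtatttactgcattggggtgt
Mmp8, chr9:7558179-7558428, plus strand: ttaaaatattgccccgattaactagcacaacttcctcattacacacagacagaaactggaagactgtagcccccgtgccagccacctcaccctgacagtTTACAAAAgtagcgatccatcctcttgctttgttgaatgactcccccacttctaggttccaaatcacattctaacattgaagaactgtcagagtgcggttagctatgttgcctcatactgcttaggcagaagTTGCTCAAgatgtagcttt
The letters were found in 6 of the 8 promoters looked at (S100a8, S100a9, Retnlg, Mmp8, Ngp and Ltf, not in G0s2 and Camp), and in 36.8% of all 32851 promoter windows of the same length. A match is a description of the letters and not a site.

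Calprotectin RNA dominated these cells. S100a8, on chromosome 3 at 90668978 to 90670035 of GRCm38, was at 76468, 76656, 79867 and 108967 CPM in WT mice 1 to 4 and at 52736, 167704, 130799 and 123566 CPM in Upf3b-null mice 1 to 4. Upf3b-null mouse 1 was the lowest of all 8 and the other 3 Upf3b-null mice were the highest, so the genotypes overlapped. S100a9, its neighbour on chromosome 3, had the same order at its ends, from 31259 CPM in Upf3b-null mouse 1 to 98018 CPM in Upf3b-null mouse 2. Both were chosen for and are not findings.

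Retnlg came next among the neutrophil genes. It lies on chromosome 16 at 48872621 to 48874496 and was at 17097, 12902, 5066 and 22902 CPM in WT mice 1 to 4 and at 12164, 37311, 29243 and 21080 CPM in Upf3b-null mice 1 to 4. WT mouse 3 was the lowest and Upf3b-null mouse 2 the highest. In other kept cells it was at 154 ± 148 CPM (SD, n = 8 mice). Mmp8, on chromosome 9 at 7558456 to 7568485, was at 1539, 934, 390 and 1309 CPM in WT and at 948, 1621, 1721 and 1984 CPM in Upf3b-null mice. Upf3b-null mice 2 to 4 were above every WT mouse, and Upf3b-null mouse 1 was among the WT values. G0s2, on chromosome 1, varied most among the marker genes, from 192 CPM in WT mouse 1 to 1890 CPM in WT mouse 4.

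The 20 most abundant genes of the members were led by S100a8, S100a9, Malat1, Retnlg and Tmsb4x (thymosin beta 4, which binds actin). They also held 6 mitochondrial transcripts, Actb, Fth1 and Ftl1 (the ferritin chains), Lyz2 (lysozyme, also of macrophages), S100a6, Ngp and Camp. Hbb-bs (rank 10) and Hba-a1 (rank 20), haemoglobin genes, were among them too. Hbb-bs was at 36 to 231 CPM in the 4 libraries with little free haemoglobin RNA and at 2884 to 16282 CPM in the other 4. Ribosomal protein genes took between 5.27% and 11.1% of the UMIs.

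**Figure D1:**
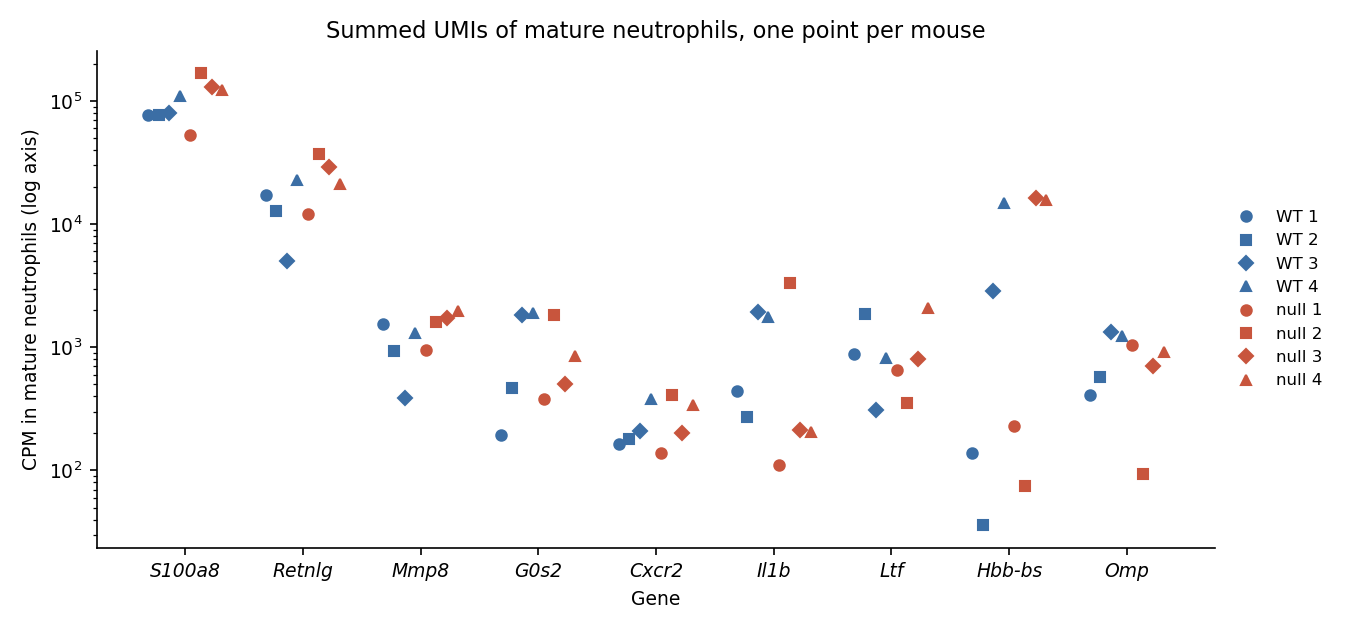
Summed UMIs of the mature neutrophils of each mouse as CPM, on a log axis, for 9 genes along the x axis. Each point is 1 mouse, blue for WT and red for Upf3b-null. Il1b spread from 110 to 3316 CPM and Hbb-bs from 36 to 16282 CPM, while Cxcr2 stayed between 138 and 410 CPM.

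Il1b, the gene of the inflammatory cytokine interleukin-1 beta, was the most uneven of the mature genes. It was at 440, 270, 1949 and 1762 CPM in WT mice and at 110, 3316, 214 and 204 CPM in Upf3b-null mice. The 3 mice at the top, WT mice 3 and 4 and Upf3b-null mouse 2, were also the 3 with the lowest median share of Ngp and Camp in their members, at 0.0524%, 0.185% and 0.0537%. The members of the other 5 mice had medians between 0.641% and 1.24%. The list of 16 receptors summed to between 1242 CPM in Upf3b-null mouse 1 and 4098 CPM in Upf3b-null mouse 2. Il1r2 of this list was found in 6.67% of thinned members in WT mouse 2 and in 66.7% in Upf3b-null mouse 2. Cxcr2, Csf3r and Cxcr4 were more even than Il1b. Cxcr2, the receptor for CXCL chemokines that calls neutrophils out of the marrow, was at 253 ± 107 CPM, Csf3r, the receptor for G-CSF, at 163 ± 89 CPM, and Cxcr4, which holds them there, at 125 ± 18 CPM (SD, n = 8 mice).

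Levels of other neutrophil genes differed along the range of Ngp and Camp. Cells were split by their share of Ngp and Camp, and a mouse counted in a bin where it had at least 5 cells. The 1895 immature cells gave 3 bins and the 890 members gave 4, of 339 (1% to 3%), 227 (0.3% to 1%), 197 (0.1% to 0.3%) and 127 cells (under 0.1%). Since the cells were ordered by 2 of their own genes, these levels are a description. Ltf (lactoferrin, of the secondary granules) was at 7155 ± 714 CPM above 10% and at 150 ± 166 CPM under 0.1%. Lcn2 (neutrophil gelatinase-associated lipocalin) was at 11291 and 1303 CPM at the same ends.

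Retnlg and Mmp8 peaked in the middle. Retnlg was at 1257 ± 591 CPM above 10%, at 26129 ± 9737 CPM between 0.3% and 1% and at 11739 ± 7444 CPM under 0.1%. Mmp8 peaked earlier, at 1955 ± 1099 CPM between 3% and 6% among the immature cells, and was at 454 ± 366 CPM under 0.1%. Il1b moved last. It was at 62 ± 39 CPM between 1% and 3%, at 745 ± 512 CPM between 0.1% and 0.3% and at 2898 ± 2782 CPM under 0.1%, with a range over 5 mice of 217 to 6813 CPM. Cxcr2 rose from 42 to 350 CPM and Csf3r from 49 to 305 CPM between the ends. The bins under 1% rest on 4 or 5 mice and those above on 7.

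**Figure D2:**
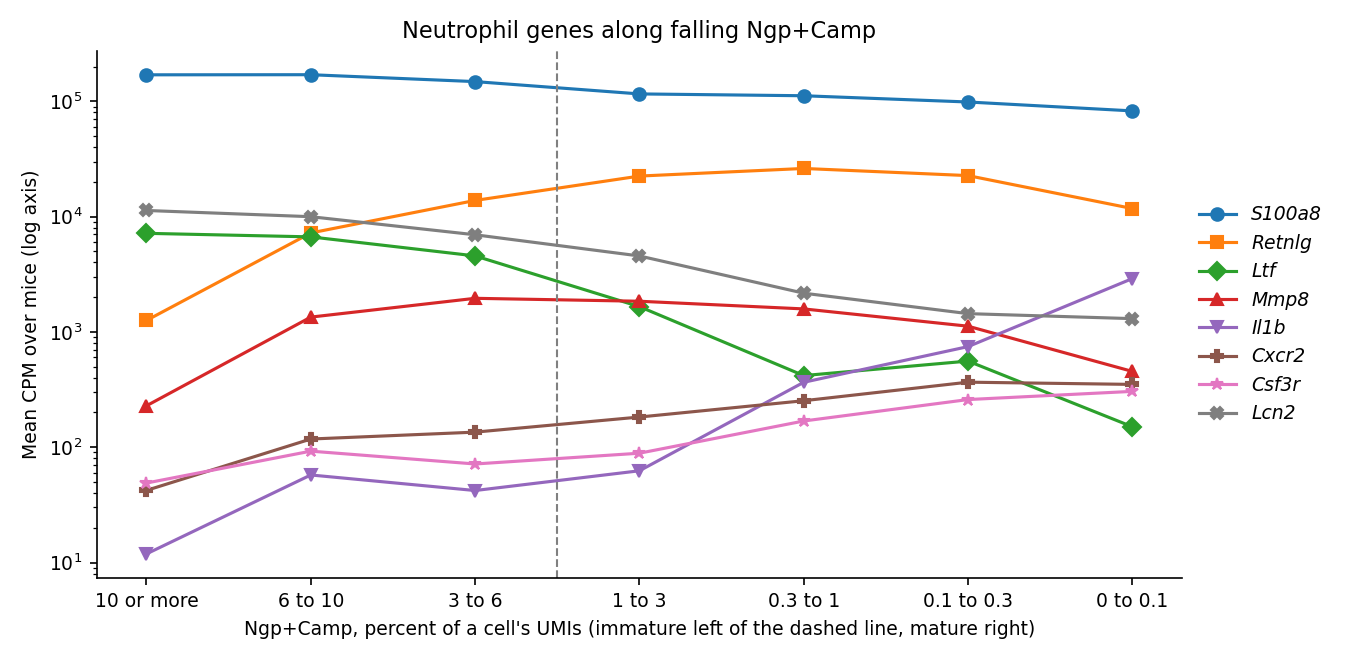
Mean CPM over mice, on a log axis, for 8 neutrophil genes in cells binned by the percent of UMIs from Ngp and Camp, which falls from left to right. Ltf and Lcn2 are lower at the right end than at the left, Retnlg and Mmp8 peak in the middle, and Il1b climbs to 2898 CPM in the last bin.

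No step in the data marked the 3% limit. There were 145 members with 2% to 3% of Ngp and Camp and 143 immature cells with 3% to 4%, and at least 2 of Retnlg, Mmp8 and G0s2 were detected in 94.5% and 88.1% of them. At the other limit, 53 members had 5% to 6% of S100a8 and S100a9 and 55 cells with little Ngp and Camp had 4% to 5%, with 83.0% and 72.7%.

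Mature cells were then set beside the immature neutrophils of the same mouse, in the 7 mice with at least 10 cells of each kind, which leaves out WT mouse 3. Because the rule parts them by genes of the same cells, no test was run. Among 1295 genes at 100 CPM or more on average in either kind, 304 were higher in mature cells in all 7 mice and 116 were lower in all 7. The ratios below are log2 ratios of CPM with 10 CPM added to each, as the median over mice with the range.

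Among the 12 genes highest in mature over immature cells, Gm5483, a gene of the stefin A family of protease inhibitors, led with 3.88 (2.37 to 8.23), and Stfa2l1 of the same family was at 2.60 (0.28 to 4.41). The reads of these near copies may have been split between them. Ccl6, a CC chemokine, was at 3.61 (1.86 to 4.70), Il1b at 3.37 (1.02 to 7.06) and Cxcl2, a chemokine that attracts neutrophils, at 2.63 (-0.60 to 3.90), lower in WT mouse 2. Wfdc17, Srgn (the granule proteoglycan serglycin) and Dusp1 (a MAP kinase phosphatase) were at 2.74, 2.64 and 2.61 and above 0 in every mouse. Cyp4f18, an enzyme that inactivates leukotriene B4, was at 2.78, and Amica1, an adhesion molecule of leukocytes, at 3.08. Pla2g7, which breaks down platelet-activating factor, ranged from 0.80 to 5.63. The remaining gene of the 12, Cyp2g1, is an enzyme of olfactory epithelium and not of blood. Its ratio was 2.84 (0.00 to 6.43), and it was higher in the other kept cells, at 1267 CPM, than in members, at 764 CPM.

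Among the 12 genes lowest in mature cells, Ngp (-3.19) and Camp (-3.11) are the rule. Beside them stood Orm1 (-3.41), Chil3 (-3.39), Ltf (-3.00) and Fcnb (ficolin B, -2.37), all made by granule-filling cells, and Cebpe (-2.42), the transcription factor of secondary granule genes. Top2a (-2.18) and Ube2c (-1.78) belong to cell division. Lta4h (-1.80), which makes leukotriene B4, Tmem216 (-2.40) and 1700020L24Rik (-2.57) completed the 12. Each was lower in all 7 mice.

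**Figure D3:**
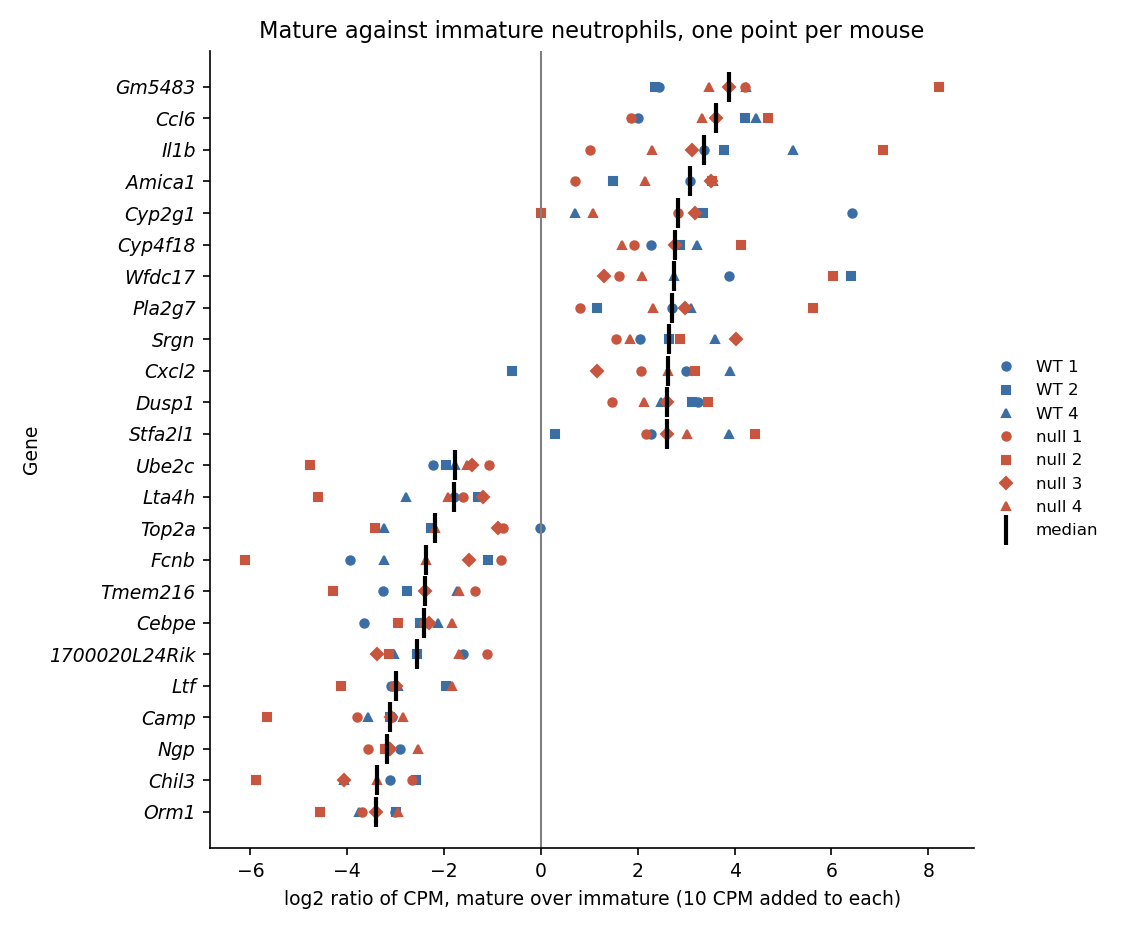
The log2 ratio of CPM in mature over immature neutrophils of the same mouse, with 10 CPM added to each, for the 12 genes with the highest and the 12 with the lowest medians. Each point is 1 of 7 mice and the black line is the median. Ngp and Camp are among the lowest by the rule, and Il1b ranges from 1.02 to 7.06.

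Gene lists were counted in the same 7 mice. Over all 5566 genes with at least 20 CPM in either kind, the median of the ratios was 0.29, 4034 were above 0, 650 were higher in all 7 mice and 230 were lower in all 7. Of 24 genes listed for mature neutrophils, 19 had a median ratio above 0 and 10 were higher in all 7 mice, while S100a8 and S100a9, which the cells were chosen by, and Wfdc21, Pglyrp1 and Ifitm6 were lower in all 7. Of 16 chemoattractant and cytokine receptors, 15 had a median above 0. The receptor below 0 was Ltb4r1, the leukotriene B4 receptor, at -1.38 and lower in all 7 mice. Of 14 cytokines and chemokines 10 had 20 CPM, and 8 of these had a median above 0 and 3 were higher in all 7 mice. Of 12 immediate early genes, which answer to stimulation and to dissociation, 11 were above 0, with a median of 1.23, and Junb and Fos were at 1.72 and 1.27. The list of 6 primary granule genes, which belong to early precursors, had 4 medians above 0, with a median of 1.10. In all 7 mice 0 of them were higher and 0 were lower.

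Lists that pointed the other way included those of the secondary granules (beside Ngp and Camp, which the rule sets, 5 of 7 were lower in all 7 mice and Mmp8 was higher in all 7) and of the cell cycle (0 of 14 above 0, 7 of 14 lower in all 7). Cybb, the catalytic subunit of the NADPH oxidase, the enzyme of the respiratory burst, was at -1.75, and Cyba and Ncf4 of the same enzyme were also lower in all 7 mice. Of 10 survival and apoptosis genes with 20 CPM, 8 had a median above 0, with a median of 0.36, and Mcl1, which neutrophils need to live, was the only one higher in all 7, at 1.27.

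Genes of other cells were counted beside these results. The list of 7 olfactory neuron genes had all 7 medians above 0, with a median of 1.06, and all 5 epithelial genes with 20 CPM had medians above 0. So had 5 of 5 macrophage genes (median 0.68), 6 of 7 monocyte genes (0.56) and 3 of 4 B cell genes (1.05). The neuron and epithelial lists were summed to 317 to 4339 and 298 to 2694 CPM in the members. Gng13 was the most abundant gene of the first list in every mouse. Members held fewer UMIs per cell than immature cells. Their median share of mitochondrial UMIs was higher than that of immature cells in each of the 7 mice, such as 4.89% against 2.28% in WT mouse 1 and 6.77% against 5.24% in Upf3b-null mouse 4. Its part in the ratios, those of the immediate early genes included, was not tested, nor was that of free RNA or of other cells. Of the eosinophil, basophil and mast cell genes, Epx was at 0 to 1.96 CPM and Siglecf reached 168 CPM in Upf3b-null mouse 2. Of the T and NK cell genes, Cd3e had no UMI in any member and Cd3d was at 0 to 35.9 CPM. Nkg7, of cytotoxic cells, was at 358 CPM in Upf3b-null mouse 1, where 11% of members had 3 or more UMIs of the list, and at 180 and 129 CPM in WT mouse 2 and Upf3b-null mouse 3.

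The members were not of 1 kind in every mouse. Primary granule genes, which early precursors express when Ngp and Camp are still off, summed to 8622 CPM in Upf3b-null mouse 1, 5013 in WT mouse 2, 3128 in Upf3b-null mouse 3, 1299 in WT mouse 3, 920 in Upf3b-null mouse 4, 275 in WT mouse 1, 75 in Upf3b-null mouse 2 and 28 in WT mouse 4. Elane was found in 5.92% of thinned members, a small share of the cells. At least 3 UMIs of a B cell list of 5 measured genes (Ebf1, also of olfactory cells, was its most abundant gene in 6 of 8 mice) were found in 33.3% of the members of WT mouse 1, 32.0% in Upf3b-null mouse 1 and 13.3% in WT mouse 2, and in 10.96% or fewer of the other 5. Cd74, the invariant chain of antigen-presenting cells, was at 1704 and 1276 CPM in WT mice 1 and 2 and at 675 CPM in Upf3b-null mouse 1, against 56 to 234 CPM elsewhere.

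The share of mature neutrophils did not differ between genotypes beyond the spread between mice. They made up 0.655%, 1.04%, 0.430% and 3.02% of kept cells in WT mice 1 to 4 and 1.40%, 1.80%, 2.92% and 10.0% in Upf3b-null mice 1 to 4. The exact 95% binomial interval was 0.339% to 1.14% in WT mouse 1 and 9.25% to 10.8% in Upf3b-null mouse 4, and covers counting error only. WT mouse 4 was above 3 of the 4 Upf3b-null mice. The means were 1.29% ± 1.18 (SD, n = 4) in WT and 4.03% ± 4.03 (SD, n = 4) in Upf3b-null mice, a difference of 2.75 percentage points (two-sided exact permutation p = 0.2, where the smallest possible is 0.0286). Without Upf3b-null mouse 4 the difference was 0.754 points. Between 70.8% and 100% of the members of a mouse held 3 or more UMIs of a list of another cell type, red cells not counted, and with the 61 members that did not the difference was 0.302 points. With cells of 1% or more erythroid UMIs left out of the denominator, but members over that cut kept, it was 23.1 points. Over all members it was 0.751 points among the libraries with little free haemoglobin RNA (0.847% against 1.60%) and 4.74 points among those with much (1.72% against 6.46%), with 2 mice of each genotype in each.

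Immature cells were also counted. Their mean share was 4.34% ± 3.20 in WT and 9.02% ± 4.11 in Upf3b-null mice (SD, n = 4 each, exact permutation p = 0.143). Mature cells were 12.9%, 11.5%, 70.6% and 38.6% of all neutrophils in WT mice and 17.6%, 25.8%, 22.6% and 41.0% in Upf3b-null mice, a difference of means of -6.63 points (exact permutation p = 0.743). This difference turned to 5.77 points without WT mouse 3, whose value rests on 12 of 17 cells. It was 9.50 points among the libraries with little free haemoglobin RNA (12.2% in WT against 21.7%) and -22.8 points among those with much (54.6% against 31.8%).

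**Figure D4:**
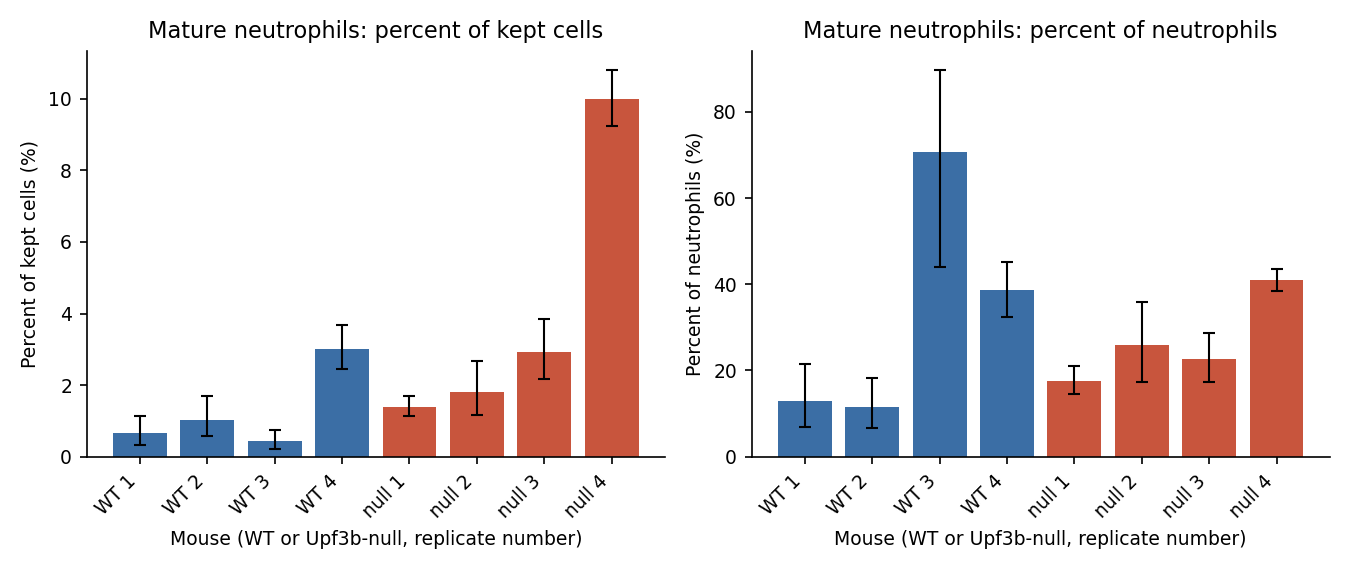
Mature neutrophils as a percent of kept cells (left) and of all neutrophils (right) for each WT (blue) and Upf3b-null (red) mouse. Bars are the share and lines the exact 95% binomial interval. Upf3b-null mouse 4 stands at 10.0% on the left, and WT mouse 3, with 17 neutrophils, at 70.6% on the right.

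No gene in the mature neutrophils passed the test for genotype. The UMIs of the members were summed per mouse and fitted with edgeR's quasi-likelihood test, 4 mice against 4. It called 0 of 1195 genes at an adjusted p of 0.05 (0% of genes tested), 5 genes had an unadjusted p under 0.05, and DESeq2 called 0 of its 16174 genes, with 54 at an unadjusted p under 0.05.

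None of the 19 tested genes of the mature neutrophil list passed. S100a8 and S100a9 are among the 19 and were used by the rule. Of the other 17, 13 had a log2 fold change above 0 and the median was 0.60, against 636 of all 1195 genes above 0 and a median of 0.03. In the same fit 0 of 5 olfactory neuron genes (median -0.20), 0 of 5 epithelial genes (-0.55) and 4 of 4 erythroid genes (1.2) were above 0, and their part in the shift was not tested. Retnlg was at 0.96 ± 0.51 (SE), Mmp8 at 0.79 ± 0.44, S100a8 at 0.67 ± 0.43 and S100a9 at 0.68 ± 0.45. These values were lower under stricter rules, which also left WT mouse 4 as the only WT mouse with at least 10 cells. They were at 0.20, 0.25, 0.25 and 0.11 with at least 10% of S100a8 and S100a9. With Ngp and Camp under 1% they were at -0.10, 0.14, -0.0024 and -0.10. The rule and the loss of WT mice cannot be told apart here. G0s2 was at -0.18 ± 0.75 and Il1b at -0.07 ± 1.26. Among the libraries with much free haemoglobin RNA G0s2 was at -1.20 and Il1b at -2.89, where Il1b passed (edgeR adjusted p = 1.48e-05). These were 2 mice of each genotype. The median share of Ngp and Camp in members was 0.0524% and 0.185% in WT mice 3 and 4. In Upf3b-null mice 3 and 4 it was 0.980% and 0.675%, and its part in the call was not tested. Among the libraries with little, G0s2 was at 2.05 and detection of Il1b overlapped between genotypes. Il1b was found in 25.0% and 40.0% of thinned members of WT mice 1 and 2, and in 17.0% and 54.2% in Upf3b-null mice 1 and 2. The receptors Cxcr2 and Csf3r were at 0.29 ± 0.52 and 0.43 ± 0.65.

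**Figure D5:**
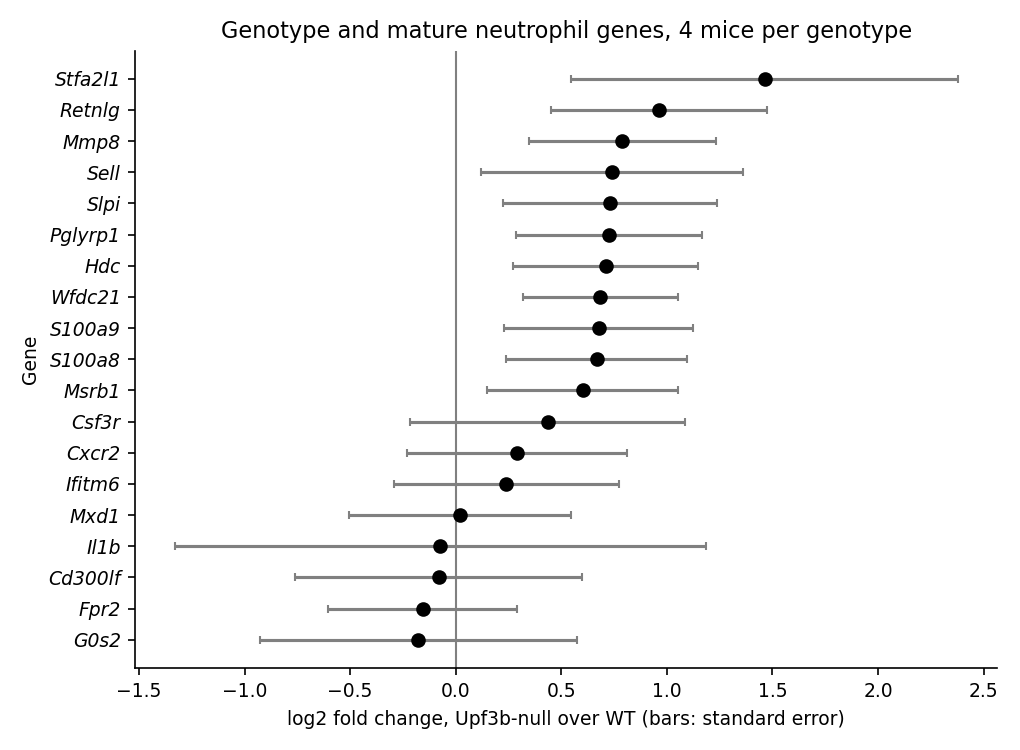
The log2 fold change of Upf3b-null over WT in mature neutrophils for the 19 tested genes of the mature neutrophil list, with the standard error as a bar. Of the 17 beside S100a8 and S100a9, 13 lie above 0, as do 636 of all 1195 genes tested, and none passed edgeR's test.

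Other lists showed no call either. None of 6 secondary granule genes beside Ngp and Camp, 7 immediate early or 77 ribosomal protein genes passed, with medians of 0.54, -0.24 and 0.02. None of the 10 core NMD factors had enough UMIs to be tested. Of 9 measured NMD and ATF4 pathway genes 2 were tested, Atf4 at 0.11 ± 0.39 and Atf5 at -0.32 ± 0.52.

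The 10 genes with the smallest p did not pass, each with an adjusted p of 0.9995 by edgeR. Coch (a matrix protein of the inner ear and epithelia) was at -2.01 ± 0.70, Gm10116 at -1.34 ± 0.47, Cd74 at -1.65 ± 0.78, Stap1 (an adaptor of B cells) at -1.06 ± 0.51 and Gstm5 at -1.41 ± 0.70. Rps27rt at 1.22 ± 0.50 and Gm8730 at 1.70 ± 0.70 are a near copy of a ribosomal protein gene and a processed pseudogene, whose reads can be split with their parents. Mrpl33, a protein of the mitochondrial ribosome, was at 0.76 ± 0.34, Mpc2, of the mitochondrial pyruvate carrier, at 0.81 ± 0.38 and Hcls1, an actin regulator of blood cells, at 0.99 ± 0.50. When WT mouse 2 was left out, Coch was at -1.23, Gstm5 at -0.14 and Stap1 at -0.42. Without the cells with 3 or more UMIs of the B cell list, Cd74 was at -0.33 and Stap1 at -0.92. WT mouse 1 then fell to 8 cells and left the fit. Without that mouse alone, Cd74 was at -1.11 and Stap1 at -1.13. The mice of the genotypes did not overlap for 5 genes, 0.418% of those tested: Gnas, Rnf11, Eef1a1, Gm10116 and Srrm2, all lower in Upf3b-null mice.

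No gene passed a test of whether the effect of genotype differed between mature and immature neutrophils. In 7 mice, with the mouse as a block, edgeR called 0 of 4530 genes (0%), with 112 at an unadjusted p under 0.05 and 0 calls by DESeq2. Genotype called 0 of 3963 genes in the immature cells themselves (0%), with 36 at an unadjusted p under 0.05.

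Neutrophil RNA was also looked for in the bulk libraries of mature olfactory sensory neurons (mOSNs), which were not part of the rule. RNA-seq was made from eYFP-positive mOSNs sorted from Omp-Cre; R26-eYFP mice, 4 libraries of each genotype, and RiboTag RNA was pulled down with tagged ribosomes of Omp-Cre; RiboTag mice, 3 of each. Each library pooled 3 male mice, 8 to 9 weeks old. The mOSNs were sorted on 2 days, and the labels do not say which library came from which. In such libraries fewer cells of a type and less RNA per cell cannot be told apart. In sorted mOSNs Mmp8 was at 6.86, 3.36, 4.91 and 1.72 CPM in WT and at 2.88, 55.4, 225 and 5.58 CPM in Upf3b-null libraries 1 to 4. Retnlg was at 15.2, 8.22, 3.28 and 8.61 CPM in WT and at 10.4, 61.9, 171 and 13.01 CPM in Upf3b-null libraries. Upf3b-null libraries 2 and 3 were high in both genes and the other 2 Upf3b-null libraries lay near WT.

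Summed, the secondary granule genes had the same 2 libraries on top. They were at 213 to 307 CPM in WT and at 205, 1106, 2139 and 262 CPM in Upf3b-null libraries 1 to 4. Olfm4 of this list did not follow, at 44.6 CPM in Upf3b-null library 1, its highest value, and at 25.5 CPM in Upf3b-null library 3. The log2 fold change was 4.02 ± 1.23 for Mmp8 (edgeR adjusted p = 0.249), 2.80 ± 0.86 for Retnlg (adjusted p = 0.249) and 0.91 ± 0.40 for S100a8 (adjusted p = 0.339). Of 8 tested transcripts of the mature neutrophil list none passed, and 5 had an unadjusted p under 0.05. Over all transcripts 26 of 11560 passed (0.225%) and 1688 had an unadjusted p under 0.05. DESeq2 called 1 of the list, Cxcr2, which had too few counts to be among the 8, and 239 of 22636 transcripts over all. Without Upf3b-null library 1, Mmp8, Pglyrp1 and Retnlg passed, where 433 of 12015 transcripts were called over all.

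In RiboTag RNA Retnlg was at 19.1, 19.8 and 6.78 CPM in WT and at 10.5, 22.4 and 50.9 CPM in Upf3b-null libraries 1 to 3. Mmp8 was at 4.42, 4.64 and 2.13 CPM in WT and at 2.84, 4.60 and 10.3 CPM in Upf3b-null libraries, and Camp was at 13.3 to 42.8 CPM in WT and at 26.0, 40.2 and 138 CPM in Upf3b-null libraries. Upf3b-null library 3 was the highest in these 3 genes and in others such as S100a8 (53.0 CPM), G0s2 (31.3 CPM), Il1b (10.7 CPM) and Hdc (258 CPM). It was not the highest in every gene of the lists. Ngp was at 32.4 CPM there and at 25.1 to 41.8 CPM in WT, and Ltf at 123 CPM there and at 63.6 to 195 CPM in WT. The secondary granule genes summed to 305, 242 and 128 CPM in WT and to 230, 373 and 326 CPM in Upf3b-null libraries 1 to 3, so the genotypes overlapped. Of the 15 tested transcripts of the mature neutrophil list 0 passed, none with an unadjusted p under 0.05. Over all transcripts edgeR called 0 of 14216 (0%), with 202 at an unadjusted p under 0.05, and DESeq2 called 17 of 22564. Without Upf3b-null library 3 edgeR called 17 of 15240. Hdc and Mxd1, the most abundant of the list in WT libraries of both assays, had log2 fold changes of -0.20 ± 0.12 and 0.20 ± 0.17 in sorted mOSNs and of 0.08 ± 0.18 and -0.11 ± 0.11 in RiboTag RNA. Both are also expressed outside neutrophils.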

How the data were processed

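Per the labels and the paper, the authors made the single-cell UMI counts with Cell Ranger 2.0 on mm10 and the bulk counts with STAR 2.5.2b and featureCounts on GRCm38 (Ensembl release 90). The paper describes the bulk counts as per gene, while the rows of the deposited tables are Ensembl transcript IDs and were used as such. Both were deposited as raw counts, without normalization. The members and gene lists were chosen with earlier results of these data known. Cells were kept and classed by the shares given above, no doublet caller was run, and counts were summed per mouse (at least 10 cells). Counts were tested in edgeR 4.0.16 by its quasi-likelihood F test, fitted robustly after filterByExpr and TMM scaling, with Benjamini-Hochberg adjustment over all genes tested, in R 4.3.3, with DESeq2 1.42.0 as an alternative. The genotype fit in mature cells was also run on simulated counts, where moderate changes were missed. A lack of calls in mature cells therefore does not show a lack of effects. Shares were compared by exact permutation over mice. CPM are scaled to 1000000 UMIs of the summed cells, and in bulk to the library with TMM factors. Transcripts were named from GENCODE vM21. Bulk depth was 1216784 to 3264827 counts in RNA-seq and 2691023 to 7542665 in RiboTag. Named genes were the genes of the rule, the markers and Upf3b, the 20 most abundant, the 12 highest and 12 lowest in mature against immature cells, members of the fixed lists beside their counts and, with fewer than 5 calls, the 10 smallest p for genotype. Gnas, Rnf11, Eef1a1 and Srrm2, and below Olfr1229 and Stfa1, were named after their values were seen. Genes of the lists that are not in the matrices used (Cebpd, Gas5, Ighm, Snhg1, Snhg15 and Trbc2) were not analysed here, and Itgam, listed under 2 gene IDs, was left out of the counts of lists. One gene is not reported here.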

Additional observations from a re-analysis of the deposited data

Results flagged for a closer look

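Of 38 groups of 4 mice that were looked at, 5 held a mouse far from the other 3. No chance rate applies to this count. S100a8 was used by the rule, and Gm10116, Gstm5, Rps27rt and Cd74 were taken for their small p for genotype in the same data. S100a8 was at 108967 CPM in WT mouse 4, against 76468 to 79867 CPM in the other WT mice. Gm10116 was at 467 CPM in WT mouse 2 (170 to 220 CPM in the others), and Gstm5 at 647 CPM in the same mouse (26 to 113 CPM). Rps27rt was at 358 CPM in Upf3b-null mouse 1 (87 to 130 CPM in the others) and Cd74 at 675 CPM in that mouse (56 to 140 CPM).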

How the results depend on the processing

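The share of mature cells among kept cells kept its direction under every alternative listed for it. The difference ran from 0.302 points without cells with 3 or more UMIs of another cell type to 23.1 points with the erythroid cut. That cut took cells of 1% or more erythroid UMIs out of the denominator but kept members over it. Free haemoglobin RNA moves the cut in 4 libraries. The median haemoglobin share of members was 1.48% in WT mouse 4 and 2.06% and 1.53% in Upf3b-null mice 3 and 4. Leaving out 1 mouse gave 0.754 (without Upf3b-null mouse 4) to 3.62 points, with p from 0.0571 (without WT mouse 4) to 0.4. The share among neutrophils ran from -13.9 to 5.77 points when 1 mouse was left out, the last without WT mouse 3.

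The number of genes called for genotype in mature cells was 0 in all but 3 settings. Without a filter on low counts 1 of 16204 was called (Olfr1229, lower), among the libraries with high haemoglobin RNA 2 (Il1b and Ccrl2, both lower in Upf3b-null mice) and with at least 50 cells per mouse 9, 5 of them higher (Elane, Mpo, Prtn3, Ctsg and Ms4a3) and 4 lower (Il1b, Ccrl2, Ccl3 and Stfa1). The last leaves WT mouse 4 alone for WT, assumed to vary like the Upf3b-null mice. The settings with S100a8 and S100a9 at 10% and with Ngp and Camp under 1% do so too, so their lack of calls decides nothing. The fit without cells of another type was not run, as only Upf3b-null mouse 4 kept 10 cells. The interaction called 1 gene without a filter (Cd74) and 0 to 13 when 1 mouse was left out, 13 without WT mouse 4. For the mature neutrophil list in sorted mOSNs, DESeq2 called 1 transcript and leaving out 1 library gave 0 to 3.

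Same-numbered mice did not deviate together (correlations of 0.0626, -0.198, -0.172 and 0.476), so the numbers are not taken as pairs. With the replicate number as a block, 0 genes were called. The share was higher in Upf3b-null mice in 4 of 4 pairs. An exact permutation of signs gave p = 0.125, the smallest that this number of pairs allows. With S100a8 and S100a9 at 10%, Upf3b-null mouse 1 kept 23 of its 100 members (of 7157 kept cells) and fell below WT mouse 1 (7 of 1832). In all RNA-seq transcripts the block called 15, DESeq2 239, no filter 43, and leaving out 1 library 12 to 433, the last without Upf3b-null library 1. In RiboTag RNA leaving out 1 library gave 0 to 17, the last without Upf3b-null library 3.

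Fold changes that changed sign, none of them past the threshold (log2): with Ngp and Camp under 1%, S100a8 (-0.0024), S100a9 (-0.10), Retnlg (-0.10), Camp (0.90), Cd74 (0.79) and Gstm5 (0.19). With at least 50 cells, S100a9 (-0.0707), Retnlg (-0.0474), Camp (0.62) and Cd74 (0.55). With S100a8 and S100a9 at 10%, Camp (0.57) and Cd74 (0.43), and at 3%, Camp (0.0135). All of these settings but that at 3% left WT mouse 4 as the only WT mouse. The setting and the loss of WT mice cannot be told apart there. Ngp was at -0.33 among the libraries with low haemoglobin RNA, where G0s2 was at 2.05, and at -0.0271 to 0.413 when 1 mouse was left out, the lowest without WT mouse 3. Camp was at 0.99 among those with high haemoglobin RNA, at 0.18 without a filter, 0.0908 with thinned cells, 0.28 without cells with B cell UMIs, and at -0.395 to 0.181 when 1 mouse was left out, above 0 without WT mouse 1 or Upf3b-null mouse 2. G0s2 was at 0.10 with Ngp and Camp under 5%, 0.0768 with a mitochondrial limit of 10%, 0.0849 with at least 2 markers, 0.0377 with the replicate block, 0.25 with the haemoglobin groups as a block, and at -0.758 to 0.324 when 1 mouse was left out, above 0 without WT mouse 3, WT mouse 4, Upf3b-null mouse 1 or Upf3b-null mouse 3. The alternatives on haemoglobin, B cell UMIs and marker number were chosen after seeing the data. The mitochondrial and marker settings also lost WT mouse 3, which had fewer than 10 cells, and without that mouse alone G0s2 was at 0.16. In the same way the B cell setting lost WT mouse 1, without which alone Camp was at 0.0558. Depth limits WT most, with 12 to 15 cells in 3 mice.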
